A study of Mus musculus with 20 samples.

Results

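The cell cycle and proliferation genes described here are 40 named genes of S phase and mitosis, chosen by symbol from a table of 54532 genes measured in the mouse temporomandibular joint (TMJ), the hinge between the lower jaw and the skull. All 40 were found in the table and all 40 passed the filter on low counts, which kept 15984 genes for testing. The libraries are bulk RNA-seq of the condyle, the end of the jaw bone that moves in the joint, and hold both its cartilage and some underlying bone. Every animal carried loxP-flanked *Loxl2* and a tamoxifen-inducible Cre driven by the *Acan* promoter, which is active in cartilage cells. The 8 control mice received vehicle and the 12 mice labelled knockout received tamoxifen at 75 mg/kg, given from 6 months of age as 5 daily injections and then, per the study's methods, as monthly maintenance doses until tissue was collected after 4 months. Since no group received tamoxifen without the floxed allele, the drug and the deletion cannot be told apart. The labels do not give the sex of single animals, although the study used both sexes.

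A dividing cell first licenses its replication origins with Cdc6, Cdt1 and the Mcm2 to Mcm7 helicase, then copies its DNA around the sliding clamp Pcna, and finally separates its chromosomes under the control of cyclin B, Cdk1, the Aurora and Polo kinases and the anaphase-promoting complex. Transcripts of the mitotic group are made almost only in cycling cells, whereas several replication genes are also transcribed in resting cells, where they serve DNA repair and nucleotide supply. In the adult condyle, dividing cells are expected mainly among cartilage and bone progenitors and among marrow cells, and mature chondrocytes and muscle fibers rarely divide.

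Library totals ran from 11153820 to 27045668 counts, and values are given as CPM, counts scaled by TMM to a common library size. *Loxl2*, the targeted gene, was at 64.5 ± 30.9 CPM in controls and 101 ± 26.9 CPM in the mice labelled knockout (SD, n = 8 and 12), a difference of 0.64 on the log2 scale that did not pass edgeR's test (SE 0.28, adjusted p = 0.101). Counts over the whole gene thus did not show a loss and cannot show which exons were read, so the second group is called knockout-labelled throughout and each direction below is that of the labels. The study itself reported less LOXL2 protein in its knockout mice by immunohistochemistry, which these RNA counts do not measure. Skeletal muscle genes were abundant, with 12 markers summing to 54931 to 199342 CPM in controls and 38400 to 99840 CPM in knockout-labelled libraries. Chondrocyte markers summed to 1595 to 3256 CPM in 7 controls but to 111 CPM in control replicate 8. That library also had the highest muscle sum. Calls without it are given below for the members, the list counts and some named genes. *Matn1*, a cartilage matrix gene on that list, did not exceed 3 counts in any library.

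To show the sequence next to the start of S phase and mitosis genes, the bases before the transcription start are given for 6 members picked from the results. *Cdt1*, *Cdc20* and *Rrm1* passed the test, and *Top2a*, *Ccnb2* and *Cdk1* were each below their control median in control replicates 4, 7 and 8. *Prc1* and *Aurkb* also passed but are not printed. The 120 bases before each *Prc1* start lie in annotated exons, and *Aurkb* had no RefSeq window. The sequences are RefSeq's on build GRCm38.p6, written 5′ to 3′ on the strand of the gene and ending at the start site, or before it where exon bases had to be left off. Capitals mark the cell cycle homology region (CHR, TTTGAA), the CCAAT box and the E2F-type motif TTTNNCGC, each searched on both strands.
Cdt1 (chr8:122567895-122568014, plus strand): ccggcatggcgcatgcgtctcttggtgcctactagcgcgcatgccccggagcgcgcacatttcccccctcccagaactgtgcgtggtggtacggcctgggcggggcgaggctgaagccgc
Rrm1 (chr7:102441575-102441694, plus strand): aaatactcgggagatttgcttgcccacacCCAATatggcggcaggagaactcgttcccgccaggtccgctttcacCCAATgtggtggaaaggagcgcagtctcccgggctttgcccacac
Cdc20 (chr4:118437353-118437463, minus strand): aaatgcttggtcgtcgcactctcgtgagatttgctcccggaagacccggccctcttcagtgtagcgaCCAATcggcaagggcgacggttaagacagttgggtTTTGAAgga
Top2a (chr11:99024190-99024309, minus strand): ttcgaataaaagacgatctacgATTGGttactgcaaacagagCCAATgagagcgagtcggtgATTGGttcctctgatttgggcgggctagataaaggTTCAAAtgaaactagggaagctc
Ccnb2 (chr9:70421555-70421674, minus strand): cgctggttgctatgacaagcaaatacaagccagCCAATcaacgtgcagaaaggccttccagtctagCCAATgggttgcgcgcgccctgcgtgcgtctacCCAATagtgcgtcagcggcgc
Cdk1 (chr10:69352939-69353032, minus strand): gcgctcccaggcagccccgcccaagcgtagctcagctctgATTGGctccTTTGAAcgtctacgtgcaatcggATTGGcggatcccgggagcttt

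In these windows *Top2a* and *Ccnb2* each held 3 CCAAT letters, *Cdk1* and *Rrm1* 2 each, *Cdc20* 1 and *Cdt1* none, and CHR letters were found in *Cdc20*, *Top2a* and *Cdk1*. Over the full 250 bases before the start, RefSeq gave 36 windows for 34 of the 40 members (*Ccna2*, *Kif20a*, *Mcm4*, *Ccne2*, *Aurkb* and *Tpx2* were not among them). CCAAT stood in 29 of the 36 windows (80.6%) against 33.8% of all 32851 promoter windows, CHR in 9 (25.0%) against 16%, and TTTNNCGC in 5 (13.9%) against 4.28%. Among the 22 windows of mitotic members, 20 held CCAAT (90.9%) and 8 held CHR (36.4%), while the 14 windows of S phase members held them in 9 (64.3%) and 1 (7.14%), respectively. TTTNNCGC stood in 4 of the 14 S phase windows and in 1 of the 22 mitotic ones. These counts kept bases that lie in annotated exons, for members and for all promoters, and the windows of *Prc1* overlap. Counted by gene, CCAAT stood in 27 of the 34 members and in 10133 of all 27025 genes. A match of letters is a description of the sequence and shows neither binding nor use of a site.

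Of the 40 genes, 4 were called higher in the knockout-labelled libraries, namely *Cdt1*, *Aurkb*, *Cdc20* and *Prc1*, and 1 was called lower, *Rrm1* (edgeR, adjusted p under 0.05). These 5 calls are 12.5% of the members, whereas 23% of all tested genes were called, 12% higher and 11% lower. Among genes with a mean between 1 and 10 CPM, 4 of 32 members (12.5%) and 15.1% of 5296 tested genes were called. At an unadjusted p under 0.05 there were 16 members (40%), 15 of them higher, against 37% of all genes. A share of called members near or under the background is not a result about the members. The log2 fold change (log2FC, knockout-labelled over control) was positive for 35 of the 40, beside 48.1% of all genes, and its median was 0.52 for the members and -0.02 for all genes, with a median SE of 0.32 and 0.17. No member separated the groups completely, which 0.3% of all genes did. Because the tissue was sequenced in bulk, fewer cells of a type and less RNA per cell cannot be told apart.

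**Figure D1:**
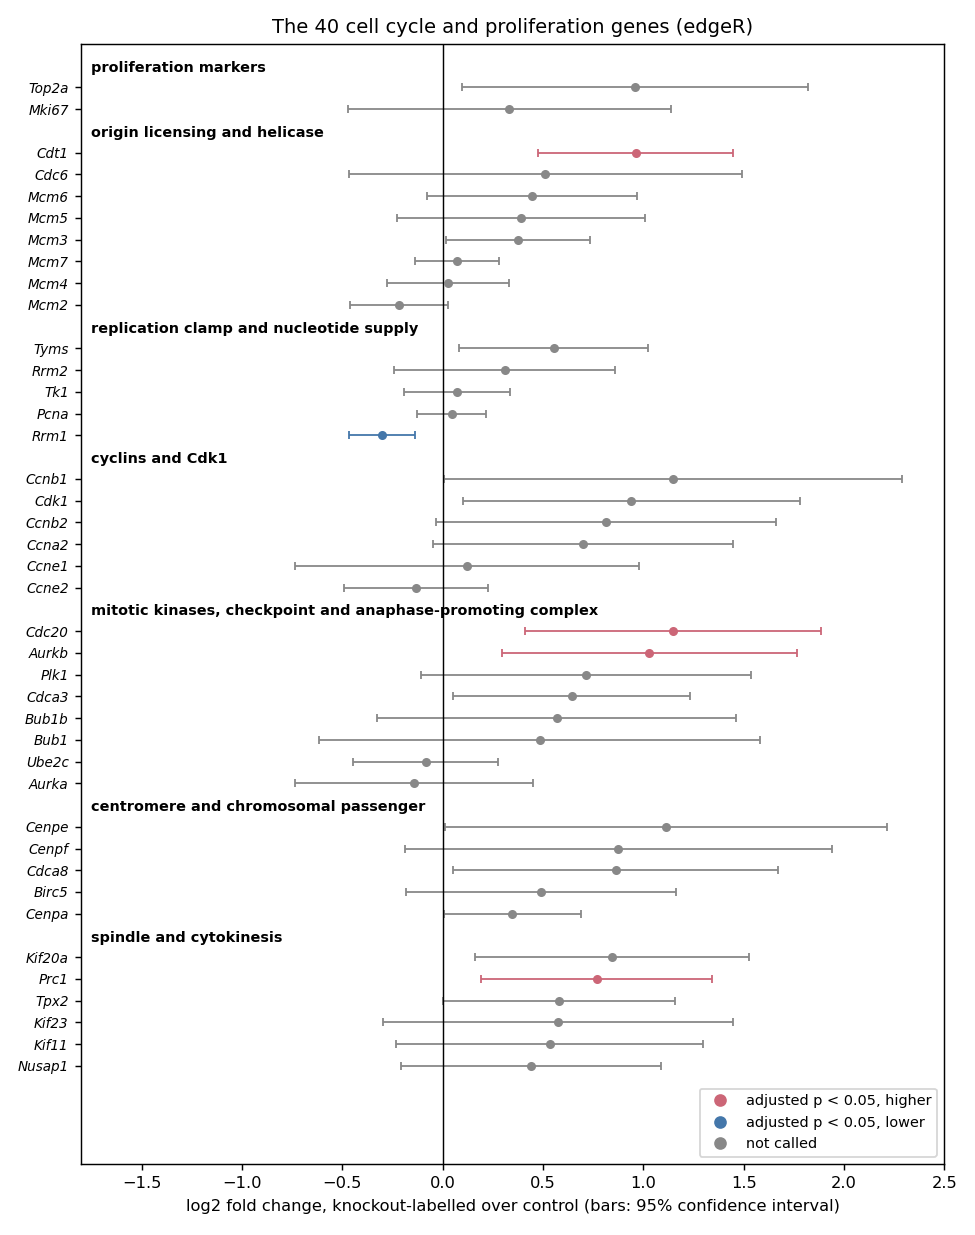
Log2 fold change of each of the 40 genes, knockout-labelled over control, on the horizontal axis with its 95% confidence interval from edgeR, grouped by role and colored by call. Of the points, 35 lie right of 0, and the narrowest intervals are those of *Rrm1* and *Pcna*.

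The proliferation markers were not called in either direction by edgeR or DESeq2, and *Top2a* alone had an unadjusted p under 0.05 in edgeR. *Mki67*, which codes for the chromosome-coating protein behind the Ki-67 stain, ran from 2.27 CPM through a median of 9.73 to 31.4 CPM in the 8 controls and from 8.61 through 13.8 to 20.9 CPM in the 12 knockout-labelled libraries. The knockout-labelled range lay entirely inside the control range, with control replicates 4, 7 and 8 at 2.27, 2.46 and 2.91 CPM and control replicate 6 at 31.4 CPM. The log2FC was 0.33 (SE 0.39, edgeR adjusted p = 0.566), with a 95% interval of -0.47 to 1.14. *Top2a*, the topoisomerase that untangles replicated chromosomes, spanned 1.01, 5.57 and 11.3 CPM (lowest, median, highest) in controls and 3.69, 11.7 and 18.6 CPM in knockout-labelled libraries, of which 6 were above every control. Its log2FC of 0.96 (SE 0.41) did not pass (edgeR adjusted p = 0.0981).

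Among the origin licensing and helicase genes, *Cdt1* rose and the other 7 did not pass. *Cdt1*, which loads the helicase at origins, spanned 1.61, 4.03 and 4.99 CPM in controls and 3.43, 7.08 and 12.5 CPM in knockout-labelled libraries. All but 2 of the 12 knockout-labelled libraries were above the highest control, the exceptions being replicates 5 and 12. The log2FC was 0.96 (SE 0.23, edgeR adjusted p = 0.00703), and *Cdt1* was called in each of the 20 fits that left out 1 library. None of the helicase subunits passed. *Mcm2* spanned 9.31, 13.5 and 16.8 CPM in controls and 8.29, 11.4 and 13.4 CPM in knockout-labelled libraries, all 12 of which were below the control median (log2FC -0.22, SE 0.12, edgeR adjusted p = 0.183). *Mcm3*, *Mcm5* and *Mcm6* had positive values of 0.38, 0.39 and 0.44, and *Mcm4* and *Mcm7* had values of 0.03 and 0.07, although the 6 subunits assemble into a single ring. *Cdc6*, the ATPase that works with Cdt1, had 0 counts in control replicate 4, which allows up to 0.179 CPM there, and a log2FC of 0.51 (SE 0.47).

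*Rrm1*, the large subunit of ribonucleotide reductase, which makes deoxynucleotides, was the only member that fell. It spanned 29.9, 34.5 and 42.6 CPM in controls and 25.2, 29.0 and 33.2 CPM in knockout-labelled libraries. All 12 knockout-labelled libraries were below the control median, and the groups overlapped between 29.9 and 33.2 CPM. It fell by 0.30 on the log2 scale (SE 0.08, edgeR adjusted p = 0.0106), again in each of the 20 fits that left out 1 library. *Rrm2*, the small subunit that is made in S phase, had a log2FC of 0.31 (SE 0.27, edgeR adjusted p = 0.418). *Pcna* was close to level, at 28.9, 33.1 and 41.6 CPM in controls and 28.9, 32.8 and 42.2 CPM in knockout-labelled libraries, and its 95% interval of -0.13 to 0.22 on the log2 scale bounds any difference. *Tk1*, the thymidine salvage kinase, had a log2FC of 0.07 (SE 0.13), and *Tyms*, which makes thymidylate, one of 0.55 (SE 0.23, edgeR adjusted p = 0.0828).

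None of the 6 cyclin and kinase members passed in edgeR or DESeq2, and 2 had an unadjusted p under 0.05 in edgeR. *Cdk1*, the kinase that drives entry into mitosis, spanned 0.230, 1.52 and 4.71 CPM in controls and 1.67, 4.34 and 6.39 CPM in knockout-labelled libraries, and all 12 of the latter were above the control median. Its log2FC was 0.94 (SE 0.40, edgeR adjusted p = 0.096). *Ccnb1*, its cyclin B partner, had 0, 1 and 3 counts in control replicates 4, 7 and 8, and the control median of 1.16 CPM compared with 3.62 CPM in the knockout-labelled group (log2FC 1.15, SE 0.55, edgeR adjusted p = 0.133). *Ccna2*, cyclin A, was above the control median in all 12 knockout-labelled libraries without passing (log2FC 0.70, edgeR adjusted p = 0.163). The G1/S cyclins *Ccne1* and *Ccne2* had values of 0.12 and -0.13.

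In the group of mitotic kinases, checkpoint proteins and the anaphase-promoting complex, *Cdc20* and *Aurkb* rose and 6 genes did not pass. *Cdc20*, the activator that turns the complex on at anaphase, spanned 0.53, 1.79 and 5.48 CPM in controls and 2.43, 4.42 and 6.63 CPM in knockout-labelled libraries. Every knockout-labelled library was above the control median, whereas control replicate 2 reached 5.48 CPM. The log2FC was 1.15 (SE 0.35, edgeR adjusted p = 0.0244), and without control replicate 8 the adjusted p was 0.0504. A stretch of 53 exon bases of *Cdc20*, 2.84% of its length, is shared with *Elovl1* on the opposite strand, and *Elovl1* itself was at 22.9 CPM in controls and 49.99 CPM in knockout-labelled libraries on average, so the strand on which those bases were read cannot be told apart. *Aurkb*, the kinase of the chromosomal passenger complex, spanned 0.383, 1.22 and 1.87 CPM in controls and 0.405, 2.69 and 3.96 CPM in knockout-labelled libraries, 8 of which were above every control. Its log2FC of 1.03 (SE 0.35, edgeR adjusted p = 0.0395) was called in 8 of the 20 fits without 1 library.

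*Aurka*, the centrosomal Aurora kinase, did not pass, and 1 control library stood far from the rest. It was at 11.6 CPM in control replicate 8, while the other 7 controls lay between 1.80 and 4.56 CPM and the knockout-labelled libraries between 1.71 and 5.58 CPM. The log2FC was -0.14 (SE 0.29) with all libraries and 0.27 without control replicate 8, the library with the highest muscle and the lowest chondrocyte sum. *Ube2c*, the ubiquitin-conjugating enzyme of the complex, had a log2FC of -0.08 (SE 0.17). Of its exon bases, 592 (22.8%) overlap *Tnnc2*, the fast-muscle troponin C gene, on the opposite strand, and they make up 74% of *Tnnc2*. *Tnnc2* was counted at only 0.933 CPM in controls, while its partner *Tnni2* was counted at 5874 CPM. Whether reads were counted by strand was not stated, and reads of *Ube2c* and *Tnnc2* cannot be told apart there. *Plk1*, *Bub1*, *Bub1b* and *Cdca3* had positive log2FCs of 0.71, 0.48, 0.57 and 0.64 that did not pass.

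No centromere or chromosomal passenger gene passed in edgeR or DESeq2 and 3 had an unadjusted p under 0.05 in edgeR, although all 5 had positive log2FCs, from 0.35 (*Cenpa*) to 1.11 (*Cenpe*). *Cdca8*, the passenger protein borealin and the member of this group with the smallest p, spanned 0.230, 1.53 and 3.18 CPM in controls and 1.24, 3.27 and 5.26 CPM in knockout-labelled libraries (log2FC 0.86, SE 0.39, edgeR adjusted p = 0.113). *Cenpe*, a motor at the kinetochore, had 2 counts in control replicates 4 and 8 and 0 counts in knockout-labelled replicate 12, which allows up to 0.152 CPM. *Birc5*, survivin, had a log2FC of 0.49.

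Of the 6 spindle and cytokinesis genes, *Prc1* rose. *Prc1*, which bundles the microtubules of the central spindle, spanned 1.07, 3.03 and 5.26 CPM in controls and 2.43, 5.29 and 8.43 CPM in knockout-labelled libraries. The groups overlapped widely, since 6 of 12 knockout-labelled libraries were at or under the highest control. The log2FC was 0.77 (SE 0.28, edgeR adjusted p = 0.0498), and the call was kept in 5 of the 20 fits without 1 library. *Kif20a*, the kinesin that works at the same structure, was above the control median in all 12 knockout-labelled libraries (log2FC 0.84, edgeR adjusted p = 0.0669), and it was called by DESeq2, beside 22.3% of all genes. Of its exon bases, 29.3% are shared with *Cdc23* on the other strand. Of the exon bases of *Prc1*, 911 (11.1%) are shared with *Rccd1* on the opposite strand. *Kif11*, *Kif23*, *Nusap1* and *Tpx2* had values from 0.44 to 0.58.

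**Figure D2:**
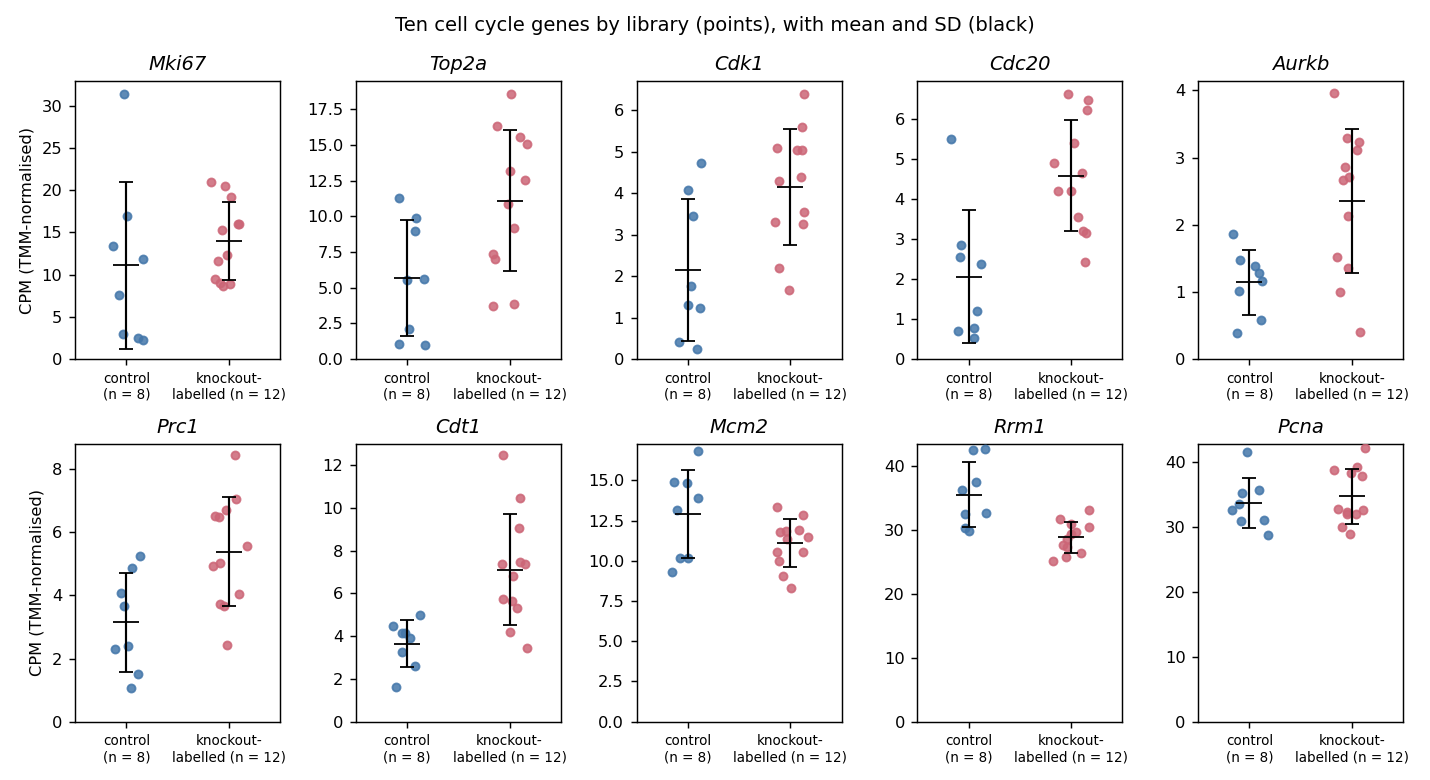
CPM on the vertical axis of 10 members in each of the 8 control and 12 knockout-labelled libraries (points), with the mean and SD in black. *Mki67*, *Top2a*, *Cdk1* and *Cdc20* are spread from near 0 upward among controls, whereas *Rrm1* and *Pcna* stay between 25.2 and 42.6 CPM in every library.

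The members differed widely in how much they varied among controls, which is a description and was not tested. The coefficient of variation (CV, the SD as a percentage of the mean) among the 8 controls ran from 11.6% for *Pcna* to 101% for *Bub1*. It was at least 50% for 25 of the 40 members (62.5%), compared with 22.1% of all tested genes, and among genes with a mean of 1 to 10 CPM for 22 of 32 members (68.8%) and 36.5% of all. In the knockout-labelled group only 4 members (10%) reached 50%, beside 17.4% of all genes. The control CV exceeded the knockout-labelled CV for 33 of 40 members (82.5%) and for 62.9% of all genes. The 10 members with a control CV under 30% were *Cdt1*, *Mcm2*, *Mcm3*, *Mcm4*, *Mcm7*, *Pcna*, *Rrm1*, *Tk1*, *Ccne2* and *Ube2c*, and 9 of these 10, all but *Ube2c*, act before mitosis. The other 5 lay between, namely *Cenpa* at 32.7%, *Tyms* at 38.5%, *Aurkb* at 42.1%, *Tpx2* at 48.0% and *Prc1* at 49.4%. Per length, the members under 30% included the highest members in controls, namely *Pcna* at 14.1 RPKM (CPM per kilobase of exon), *Mcm7* at 4.30 and *Rrm1* at 3.23 RPKM, and the lowest members were *Cenpf* at 0.108 and *Cenpe* at 0.128 RPKM, both with a control CV over 60%.

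**Figure D3:**
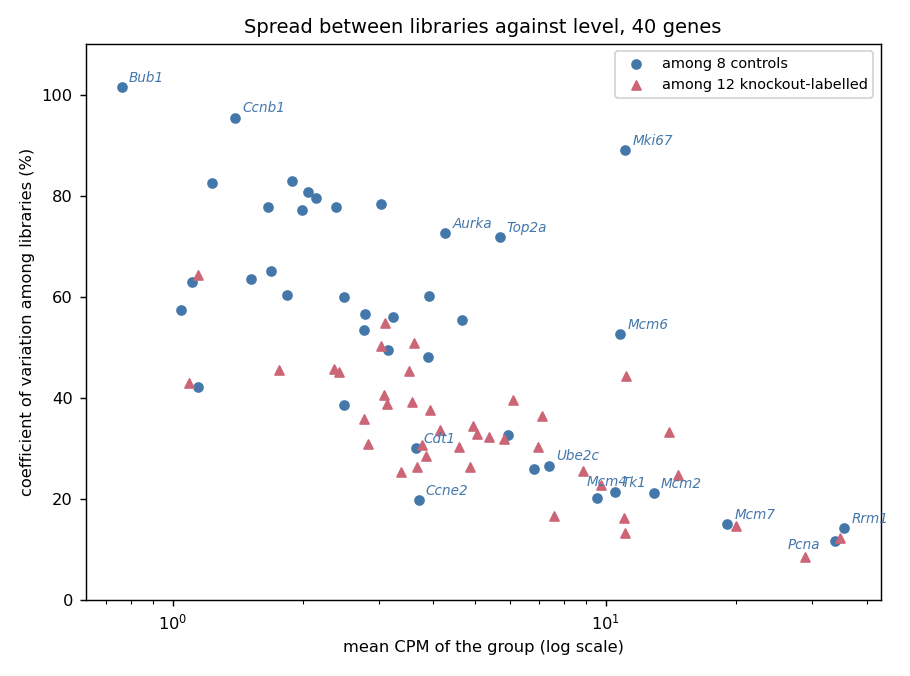
CV among libraries in percent against the mean CPM of the group on a log axis for the 40 genes, with blue circles for the 8 controls and red triangles for the 12 knockout-labelled libraries. *Mki67* and *Mcm6* vary by 89.0% and 52.6% among controls at levels where *Tk1* and *Mcm2* vary by 21.4% and 21.2%.

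The variable members were low in the same control libraries. In control replicates 4, 7 and 8, 33, 33 and 32 of the 40 members were below their control median, and 28 members had their lowest value of all 20 libraries in one of these. Of the 25 members with a control CV of at least 50%, 20 were below the control median in all of these 3 libraries. Of the other 15 members, 3 were. The 3 libraries were picked from these same values, which also set the CV, so this contrast is partly built in and is only a description. Control replicates 2 and 6 were the opposite, with 35 and 38 members above the median. Knockout-labelled replicates 2 and 10 each had 37 members above their group's median and replicate 6 had 33, whereas replicates 12, 5, 9 and 4 had 39, 37, 37 and 33 below it. The summed CPM of all members ran from 179 to 317 in controls (median 221) and from 200 to 354 in knockout-labelled libraries (median 288), and most of each sum came from the licensing, helicase, clamp and nucleotide genes. The cyclins and *Cdk1* alone summed to 5.67 to 23.3 CPM in controls and to 9.46 to 29.2 CPM in knockout-labelled libraries.

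**Figure D4:**
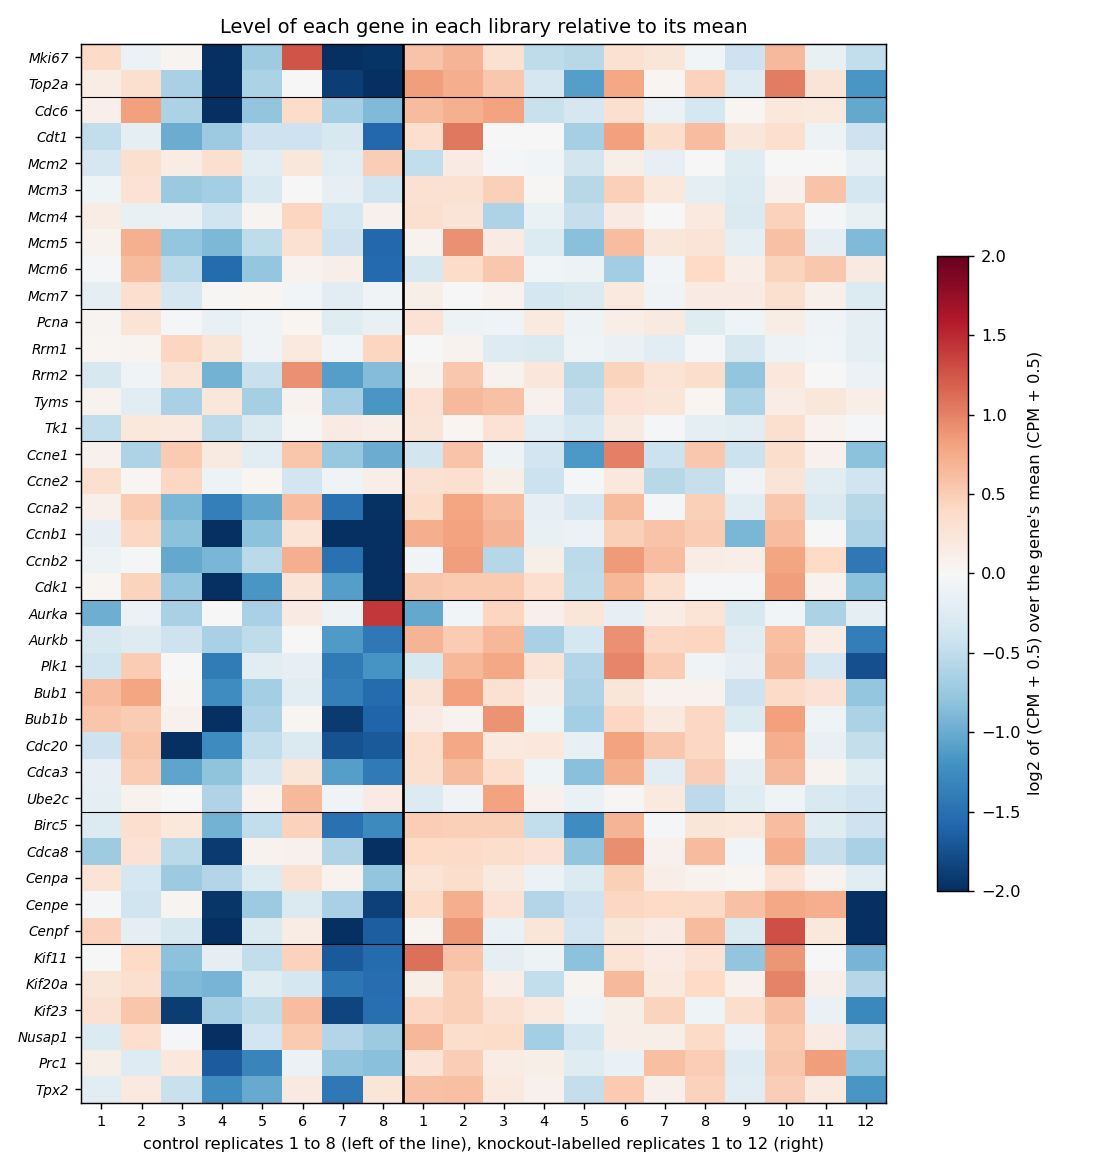
Log2 of each gene's CPM over its mean across the 20 libraries (0.5 CPM added to both), with genes in rows by role and libraries in columns, controls left and knockout-labelled right of the line. Controls 4, 7 and 8 and knockout-labelled replicate 12 are blue over most mitotic rows, while the rows of *Mcm7*, *Pcna* and *Rrm1* are pale throughout.

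Summed RNA of several marker lists differed over the same contrast. Of 12 marker lists, 7 differed in summed CPM between the groups by an exact two-sided permutation test. Osteoclast markers ran from 183 to 1485 CPM in controls and from 665 to 8093 CPM in knockout-labelled libraries (exact permutation adjusted p = 0.000762), with all 10 genes called higher and none at 0 counts throughout. Macrophage markers ran from 50.9 to 246 and from 147 to 584 CPM (7 of 8 called higher), and osteoblast and osteocyte markers from 1427 to 13440 and from 4559 to 40891 CPM (6 of 12 higher). Mast cell (5 of 7), granulocyte progenitor (2 of 8) and chondrocyte (2 of 12) lists were also higher and the muscle list was lower (6 of 12 genes), with exact permutation adjusted p of 0.0126, 0.0206, 0.0244 and 0.0247. Control replicate 8 was in these tests, with 111 CPM of chondrocyte markers against 1595 to 3256 CPM in the other controls. It also had the highest muscle sum, 199342 CPM. Neither list is compared here without that library. Erythroid, mature neutrophil, B lineage progenitor, endothelial and T cell lists did not pass, at 0.0848, 0.0848, 0.144, 0.379 and 0.142. Most of the B lineage progenitor sum was *Ebf1*, with medians of 31.4 CPM in controls and 29.0 CPM in knockout-labelled libraries. The medians of the whole list were 37.3 and 34.4 CPM. *Rag1*, *Rag2*, *Vpreb1*, *Igll1* and *Dntt* averaged at most 0.40 CPM in either group, so that sum mostly follows *Ebf1*. The mitochondrial share of counts was 17.8% ± 2.78 in controls and 13.6% ± 3.03 in knockout-labelled libraries (SD, n = 8 and 12). The part of the macrophage, osteoblast, mast cell and chondrocyte lists and of the mitochondrial share in the member values was not tested.

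Muscle sums were uneven over the libraries with few and with many mitotic transcripts. Control replicates 8 and 4 had the 2 highest muscle sums of their group, 199342 and 139856 CPM, and knockout-labelled replicates 12 and 5 the 2 highest of theirs, 99840 and 94802 CPM. Knockout-labelled replicates 2 and 10, high in mitotic genes, had the 2 lowest, 38400 and 45711 CPM. Other libraries did not follow this order. Control replicate 6, with 38 members above the median, had the third highest muscle sum of the controls at 95240 CPM, and control replicate 7, low in mitotic genes, was at 88574 CPM. Knockout-labelled replicate 6, high in mitotic genes, was at 69939 CPM, and replicates 9 and 4, low in them, were at 67023 and 68418 CPM, all near their group's median of 67721 CPM. *Mki67* and *Top2a* were correlated with 6 marker lists within each group, 24 relations in all. Within the 12 knockout-labelled libraries, Pearson's r of *Top2a* was -0.77 with the muscle list and 0.74 with the osteoclast list, and that of *Mki67* with the muscle list was -0.76 (permutation adjusted p = 0.0481 each). Without the 2 libraries farthest from the median these were -0.72, 0.62 and -0.62. The matching Spearman values of -0.66, 0.73 and -0.70 did not pass (permutation adjusted p = 0.133, 0.114 and 0.114). Among the 8 controls none passed, *Top2a* with muscle being nearest at r = -0.81 (exact permutation adjusted p = 0.0519) and at -0.34 without the 2 farthest libraries. The passing relations depend on the scaling, as none of the 24 passed with DESeq2 or upper-quartile factors and 5 did with library totals.

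With marker scores as covariates the calls depended on the list. The muscle score and the granulocyte progenitor score each left 0 of the 40 members called, beside 5.31% and 5% of all genes, with 4 and 3 members at an unadjusted p under 0.05. With the osteoclast score no member and no other gene was called, 1 member had an unadjusted p under 0.05, and the median of the members moved from 0.52 to -0.11. That score had 59.0% of its variance between the groups, so it shares most of the contrast itself, and the 2 cannot be told apart in these libraries. The muscle and granulocyte progenitor scores had 24.8% and 29.95% of their variance between the groups, so they also carry part of the contrast. Their fits therefore cannot separate these cell types from the group labels. The shares were 17.6% for the erythroid score and 5.28% for the B lineage progenitor score. With the erythroid score 9 members were called higher and 1 lower, beside 20.6% of all genes in either direction, adding *Top2a*, *Rrm2*, *Ccna2*, *Cdca3* and *Cenpa*, and with the B lineage progenitor score 3 were higher and 1 lower, beside 25.2%. Without control replicate 8, *Cdt1* was the only member called higher and *Rrm1* the only one called lower, beside 15.7% of all genes.

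Genes of the same pathways outside the 40 were counted in lists chosen by function. Of 45 tested other mitosis genes, 12 rose and none fell (26.7% called, median log2FC 0.80), and of 42 tested other S phase and replication genes 1 rose and 2 fell (7.14% called, median 0.06), both beside 23% of all genes. Without control replicate 8, 7 other mitosis genes were called, beside 15.7% of all genes, and with no filter on low counts 6 were, beside 8.74%. *Racgap1*, a partner of Prc1-bundled microtubules in cytokinesis, spanned 0.894, 1.86 and 4.73 CPM in controls and 3.39, 6.34 and 10.7 CPM in knockout-labelled libraries, all 12 above the control median (log2FC 1.26, SE 0.31, edgeR adjusted p = 0.00703). *Hmmr* and *Ckap2*, which act on spindle microtubules, rose by 1.46 and 1.36 on the log2 scale and were called in 18 and 20 of the 20 fits without 1 library. Their neighbor in function *Ckap2l* rose by 1.5 (edgeR adjusted p = 0.0438) but was called in 7 of these fits and in 8 of 15 other alternatives. Among S phase genes *Chaf1b*, a subunit of chromatin assembly factor 1, rose by 1.95 (SE 0.45), from a median of 1.33 CPM in controls to 4.94 CPM. *Rpa1*, the large subunit of the single-strand DNA binding protein, and the origin recognition subunit *Orc4* fell by 0.38 and 0.31. *Hmmr*, *Ckap2l* and *Orc4* were not called without control replicate 8.

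**Figure D5:**
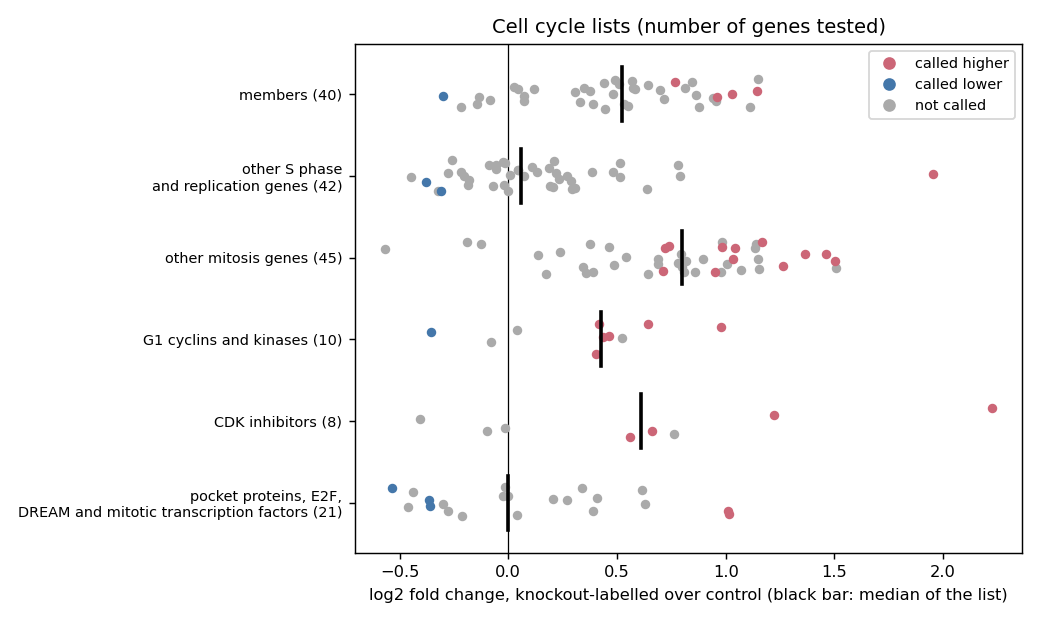
Log2 fold changes of tested genes (points) in the 40 members and in 5 other cell cycle lists, knockout-labelled over control, with the median of each list as a black bar and calls in color. The other mitosis genes are centered at 0.80 and the other S phase genes at 0.06.

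Regulators upstream of the 40 genes were counted in the same way. Over the lists of G1 cyclins and kinases, CDK inhibitors, and pocket proteins, E2F and DREAM genes, 12 of 39 tested genes rose and 4 fell (41%, beside 23% of all genes), and without control replicate 8, 10 were called, beside 15.7%. The 3 lists differed, with 70%, 50% and 23.8% of their genes called, respectively. Among G1 cyclins and kinases, which push the cell toward S phase, *Cdk6* rose by 0.98 (SE 0.25, edgeR adjusted p = 0.00806), *Ccnd3* by 0.46, and *Cdk7*, *Cdk2* and *Cdk4* by 0.44, 0.42 and 0.40. *Ccnd2*, cyclin D2, rose by 0.64 (edgeR adjusted p = 0.0495) and was called in 5 of the 20 fits without 1 library and in 4 of 15 other alternatives. *Ccnd1*, cyclin D1, spanned 9.72, 20.9 and 39.5 CPM in controls and 17.7, 31.9 and 50.01 CPM in knockout-labelled libraries and did not pass (log2FC 0.53, SE 0.23, edgeR adjusted p = 0.1005). *Ccnh*, the cyclin of the Cdk7 kinase, fell by 0.36. Without control replicate 8, *Ccnd2*, *Ccnh* and, among the regulators named below, *Cdkn1a*, *Foxm1*, *Rb1* and *Rbl2* were not called.

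Inhibitors of the same kinases rose as well, in 4 of 8 genes (50% called, beside 23% of all genes). Another 3 had negative log2FCs, the lowest -0.40. Of these, 1 had an unadjusted p under 0.05 in edgeR and 0 were called. *Cdkn2a*, which codes for p16 and p19Arf, spanned 0, 0.371 and 1.84 CPM in controls and 0.303, 2.22 and 6.78 CPM in knockout-labelled libraries (log2FC 2.23, SE 0.64, edgeR adjusted p = 0.0166), and its highest control was replicate 5, which also had the highest osteoclast sum of the controls. *Cdkn1a*, p21, spanned 49.1, 57.3 and 101 CPM in controls and 60.9, 90.7 and 166 CPM in knockout-labelled libraries, all above the control median (log2FC 0.56, SE 0.17, edgeR adjusted p = 0.026). *Cdkn2b* and *Cdkn2c*, p15 and p18, rose by 1.22 and 0.66.

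Of the 21 transcriptional regulators tested, 5 were called (23.8%, beside 23% of all genes), 2 higher and 3 lower, with a median log2FC of -0.002. That share is near the background and is not a result about the list. Among them, *Foxm1*, which activates mitotic genes, rose by 1.01 (SE 0.33, edgeR adjusted p = 0.0324), from a control median of 2.73 CPM to 5.15 CPM, and was called in 15 of the 20 fits without 1 library. *Myc* rose by 1.01 (SE 0.20, edgeR adjusted p = 0.00217) and was above the control median in all 12 knockout-labelled libraries. *Rb1* and *Rbl2*, pocket proteins that hold E2F targets silent, fell by 0.36 and 0.37, and *Lin52*, a subunit of the DREAM complex, fell by 0.53 (SE 0.11, edgeR adjusted p = 0.00296). *Rb1* was below the control median in all 12 knockout-labelled libraries. *E2f1*, an activator of S phase genes, had a log2FC of 0.63 (SE 0.28) that did not pass (edgeR adjusted p = 0.108).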

How the data were processed

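The authors deposited raw read counts per Ensembl gene for 20 libraries. Per the labels and the study's methods, paired-end reads were mapped to mm10 and counted with featureCounts. The aligner, annotation release and use of strand were not given in the sources used here, so genes with overlapping exons (2 members on the same strand and 11 on the opposite one, in GENCODE M21 on GRCm38/mm10) are uncertain. Libraries held 11153820 to 27045668 counts, so 3 counts equal 0.0964 to 0.246 CPM on the TMM-scaled library sizes, a limit covering counting error only. Groups and replicate numbers came from the sample titles.

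Counts were fitted with edgeR 4.0.16 (R 4.3.3; filterByExpr, TMM scaling, quasi-likelihood F-test, two-sided) and p-values were adjusted by Benjamini and Hochberg over all 15984 genes, with a threshold of 0.05. The study's DESeq2 test (version 1.42.0 here) was an alternative. The labels do not say that each library came from a separate animal, so p-values measure the spread between these samples. Marker list sums were compared by an exact permutation test over 125970 assignments, and correlations within groups by 40320 pairings (controls) or 100000 resamples, adjusted over 24 relations. On simulated data the scripts were tested before use. Named genes were *Mki67*, *Top2a*, *Pcna*, *Cdk1*, *Ccnb1*, the member with the smallest p in each role group, up to 4 called genes per direction with the largest fold change in each pathway list, and *Ccnd1*, *Cdkn1a*, *Cdkn2a*, *Rb1*, *E2f1* and *Foxm1*; other members named for an overlap, a zero count or a contrast with these were picked after their values were seen. The members and all lists were chosen with earlier results of these data known. Other alternatives were scaling, filters, protein-coding genes alone, robust dispersion, a replicate block, covariates and leaving out each library.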

Additional observations from a re-analysis of the deposited data

Results flagged for a closer look

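Of 75 sets of 8 control values checked for a library far from the rest (named genes, members and marker lists), 8 had one. The cutoff gives about 1 in 20 for independent, normally distributed values. These CPM sets share the same 8 libraries, so 8 of 75 is not set against that rate. *Aurka* was at 11.6 CPM in control replicate 8, with the next control at 4.56 CPM. *Cdc20* was at 5.48 CPM in control replicate 2, with the next at 2.83 CPM. *Cdkn2a* reached 1.84 CPM in control replicate 5 and *Orc4* 29.2 CPM in control replicate 3. Control replicate 5 was also the highest control for the osteoclast list (1485 CPM, next 575 CPM), the osteoblast and osteocyte list (13440 CPM, next 5653 CPM) and the macrophage list (246 CPM, next 135 CPM). The mast cell list was at 20.4 CPM in control replicate 1, with the next control at 9.65 CPM. What sets these libraries apart was not tested.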

How the results depend on the processing

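With DESeq2 size factors, a mean of at least 1 CPM, protein-coding genes alone or robust dispersion, 4 members were called higher and 1 lower, as with TMM, beside 22.9% to 26.2% of all genes. With library totals alone the median log2 fold change of all genes moved from -0.02 to 0.12, 2188 of 3037 called genes were higher against 1918 of 3673 with TMM, 0 members were called lower, *Aurka* turned to 0.11 and *Ube2c* to 0.066. Without a filter 2 members were called higher and 6 other mitosis genes were called, with 8.74% of all genes called. Of the 24 correlations, 0 passed with DESeq2 or upper-quartile factors and 5 with library totals. DESeq2 called 5 members higher and 1 lower, beside 22.3% of all genes. The cause of these shifts was not tested.

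Leaving out 1 library at a time gave 1 to 7 members called higher, 1 called lower, 2 to 5 other S phase genes, 7 to 16 other mitosis genes and 10 to 18 regulators, with 1 member higher, 7 mitosis genes and 10 regulators without control replicate 8. The share of all genes called in these fits ran from 15.7% without control replicate 8 to 26.3% without knockout-labelled replicate 5. Without control replicate 2 there were 7 members higher, beside 22.1% of all genes called in either direction. There were 2 without control replicate 5 or 7 or knockout-labelled replicate 1, 2, 3, 6, 7, 8 or 10, beside 19.3% to 24.8% of all genes. Without control replicate 1 or 5, 5 S phase genes were called, beside 24.5% and 24.8% of all genes. *Aurka* ran from -0.26 to 0.27, *Ccne1* from -0.083 to 0.29, *Mcm4* from -0.024 to 0.11 and *Ube2c* from -0.20 to 0.041.

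The replicate numbers did not pair the samples, since the correlations of deviations from the group means ran from -0.36 to 0.17 over the 8 numbers. A fit on the 16 libraries with shared numbers and a replicate block called 4 members higher and 0 lower (beside 11.5% of all genes), 2 S phase genes, 6 mitosis genes and 9 regulators, against 3, 1, 4, 9 and 15 in the same libraries with no replicate block (beside 21.1% of all genes). With the block *Aurka* was 0.13 and *Ube2c* 0.0042, and 0.020 for *Ube2c* without the block.

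With the erythroid score as covariate 9 members were higher and *Ube2c* was 0.10, and with the B lineage progenitor score 5 S phase genes were called. Of all genes, 20.6% and 25.2% were called in these fits, 5% with the granulocyte progenitor score and 5.31% with the skeletal muscle score. With the granulocyte progenitor score 0 members were higher and 0 lower, 0 S phase and 0 mitosis genes and 4 regulators were called, and log2 fold changes turned for *Mki67* (-0.10), *Mcm4* (-0.10), *Mcm7* (-0.037), *Tk1* (-0.14), *Ccne1* (-0.34), *Birc5* (-0.083), *Nusap1* (-0.012) and *Aurka* (0.17). With the skeletal muscle score 0 members, 0 S phase genes, 0 mitosis genes and 2 regulators were called, and values turned for *Mki67* (-0.18), *Mcm4* (-0.19), *Mcm5* (-0.16), *Mcm7* (-0.012), *Pcna* (-0.038), *Ccne1* (-0.48), *Bub1* (-0.15), *Kif11* (-0.20) and *Aurka* (0.53). With the osteoclast score 0 genes of every list and 0 members were called, and values turned for *Mki67* (-0.36), *Top2a* (-0.33), *Cdc6* (-0.45), *Cdt1* (-0.010), *Mcm4* (-0.28), *Mcm5* (-0.66), *Mcm7* (-0.15), *Pcna* (-0.063), *Rrm2* (-0.021), *Tk1* (-0.11), *Ccne1* (-0.94), *Ccna2* (-0.14), *Aurka* (0.65), *Plk1* (-0.35), *Bub1* (-0.61), *Bub1b* (-0.26), *Cdca3* (-0.23), *Birc5* (-0.62), *Cdca8* (-0.48), *Cenpa* (-0.053), *Cenpf* (-0.10), *Kif11* (-0.33), *Nusap1* (-0.21), *Ccnd1* (-0.33), *Cdkn2a* (-0.039), *Chaf1b* (-0.066) and *Ccnd3* (-0.025). In that fit 0 of 15984 genes passed edgeR's test, so it says nothing about single genes.

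Low counts limit the rarest members, since *Ccnb1* and *Bub1* had at most 3 counts in control replicates 4, 7 and 8. These low counts did not follow depth. The 3 libraries held 19347842, 15912420 and 18221500 counts in total, while control replicate 2, at 18073143, had 62 and 37 counts of these genes.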
